A study of Mus musculus with 2 samples.

Results

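Imprinted growth genes are expressed mainly from the allele inherited from the mother or mainly from that of the father, and act on the growth of the fetus, the placenta and many tissues. The genes listed here were H19, Igf2, Meg3, Dlk1, Peg3, Mest, Cdkn1c, Plagl1, Grb10 and Ndn, and every probe that the array's RefSeq accessions tie to them was taken. Of the 10 genes, 9 were matched, by 18 probes on 27 spots, out of 20660 genes with a named probe and 55674 probes in all. No probe was matched to H19, and no value is given for it. The RNA came from pieces of ovaries of 2-week-old mice, each ovary cut symmetrically, that were kept in culture for 3 days. Tachykinin receptors (TKRs) are the G protein-coupled receptors TACR1, TACR2 and TACR3 for the neuropeptides substance P, neurokinin A and neurokinin B. The agonists were a substance P analogue selective for TACR1, GR-64349 for TACR2 and a peptide analogue selective for TACR3. The antagonists were a selective blocker of TACR1, GR-94800 for TACR2 and SB218795 for TACR3, each ligand at 1 μM. Each group gave 1 array. The paper describes the antagonist group as treated with all of its antagonists, and how the agonists were combined is not given in the sources used here. The strain and the number of ovaries behind each RNA are not given in the sources used here, and no ovaries cultured without ligands were analysed here. Oocyte markers (Gdf9, 95396 signal units with agonists and 85421 with antagonists) and granulosa cell markers (Inha, 33223 and 45079) were well above background on both arrays.

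An imprint is a methylation mark set on the DNA of the egg or the sperm and kept in the body cells of the offspring, so that an imprinted gene is in effect read from a single allele. Many of these genes lie in clusters that share a control region, and long noncoding RNAs such as H19 and Meg3 are read from the same clusters as the growth factor Igf2 and the membrane protein Dlk1. Genes expressed from the paternal allele tend to promote growth, and several of those expressed from the maternal allele restrain it. Many of them are highly expressed in fetal organs and decline after birth. In the ovary the growing oocyte is also the cell in which maternal imprints are set.

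Promoters of 8 of the 10 genes were found among RefSeq promoters of assembly GRCm38.p6, as 15 start sites with 250 bases before and 50 after each. The letters CG, the site of DNA methylation, occurred from 1 time (in a Meg3 promoter) to 45 times (in a Grb10 promoter) in these windows, against a median of 7 and quartiles of 3 and 20 over 32851 promoters of the same length. The promoters below are shown because Mest has start sites that differ in CG content and is tied to probes for several transcripts, because Dlk1 lies near the median in CG content, and because Plagl1 lies above the upper quartile. CG is in capitals. No methylation was measured in these ovaries.
Mest upstream promoter, chr6:30733256-30733555, plus strand: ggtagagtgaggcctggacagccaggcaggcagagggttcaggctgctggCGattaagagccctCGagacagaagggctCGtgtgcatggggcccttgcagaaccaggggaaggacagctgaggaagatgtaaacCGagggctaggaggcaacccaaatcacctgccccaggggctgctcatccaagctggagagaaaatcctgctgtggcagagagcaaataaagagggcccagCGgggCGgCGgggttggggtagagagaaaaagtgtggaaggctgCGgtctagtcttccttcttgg
Mest downstream promoter, chr6:30737800-30738099, plus strand: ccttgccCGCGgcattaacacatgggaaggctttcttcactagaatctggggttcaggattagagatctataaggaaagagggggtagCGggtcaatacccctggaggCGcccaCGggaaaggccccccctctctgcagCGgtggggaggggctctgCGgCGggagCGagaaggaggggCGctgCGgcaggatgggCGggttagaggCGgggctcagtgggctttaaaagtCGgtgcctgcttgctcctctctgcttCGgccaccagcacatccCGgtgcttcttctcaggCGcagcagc
Dlk1 promoter, chr12:109452573-109452872, plus strand: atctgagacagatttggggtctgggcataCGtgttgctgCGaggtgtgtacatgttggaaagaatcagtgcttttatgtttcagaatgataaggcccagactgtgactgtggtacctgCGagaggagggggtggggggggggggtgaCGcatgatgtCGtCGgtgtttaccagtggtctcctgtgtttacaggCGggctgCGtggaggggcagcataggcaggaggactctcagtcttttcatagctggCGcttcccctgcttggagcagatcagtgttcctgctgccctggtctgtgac
Plagl1 promoter, chr10:13090582-13090881, plus strand: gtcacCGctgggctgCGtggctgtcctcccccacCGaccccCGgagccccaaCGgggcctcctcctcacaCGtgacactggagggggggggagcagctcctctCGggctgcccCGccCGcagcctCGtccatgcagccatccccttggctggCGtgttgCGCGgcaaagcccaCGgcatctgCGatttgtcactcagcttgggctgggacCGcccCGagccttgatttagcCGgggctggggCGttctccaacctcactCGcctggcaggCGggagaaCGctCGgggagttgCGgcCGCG
The upstream Mest promoter holds 8 CG and the downstream one 17, that of Dlk1 holds 9 and that of Plagl1 holds 26. No promoter sequence is shown for H19 and Cdkn1c.

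On each array the signal of a spot was divided by the array's 75th percentile, which was 672 signal units with agonists and 569 with antagonists, and a log2 ratio below is agonists minus antagonists after this scaling. A probe is called well above background by the image analysis software's own mark. Signals of different probes are not compared as levels, since probes differ in how well they bind. The error beside a signal or a ratio is the software's estimate for the spot and does not hold the spread between ovaries. With 1 array per group no such spread can be estimated and no test was made, so the values describe these RNAs. In whole ovary RNA a change in the number of cells of a type and a change in RNA per cell cannot be told apart. Both arrays had 33073 probes marked in this way, and their log2 ratio had a median of -0.10 and an SD of 0.43. The median ranged from -0.15 with the array medians equalised to 0.18 with spike-in controls equalised, so ratios are best read relative to it.

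By their brightest probe, Cdkn1c and Mest were at least 2-fold higher with agonists than with antagonists. Dlk1, Grb10, Peg3 and Meg3 were higher by less. Ndn and Plagl1 had a ratio below 0, Ndn by less than its error of 0.20. A dimmer probe of Meg3 and a dimmer probe of Plagl1 gave the opposite sign. Of the 9 genes, 8 were well above background on both arrays by their brightest probe, and 6 of these had a ratio above 0. The 2 genes past 2-fold stand against 4.01% of all 15258 named genes well above background on both arrays, none was 2-fold lower against 0.577%, and a ratio above 0 was seen in 37.7% of those genes. The median log2 ratio of the 8 genes was 0.45, that of all named genes -0.10. The median of the 8 genes lay 0.54 above that of all probes, and scalings by 1 constant per array cannot change this distance. With the scalings that can change it, it was 0.50 (quantile) and 0.52 (loess on signal). With normexp background correction it was 0.52. Of the 18 probes, 16 were well above background on both arrays, 11 of them with a ratio above 0, where 36.9% of all such probes were, and 3 past 2-fold, where 2.69% were.

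**Figure D1:**
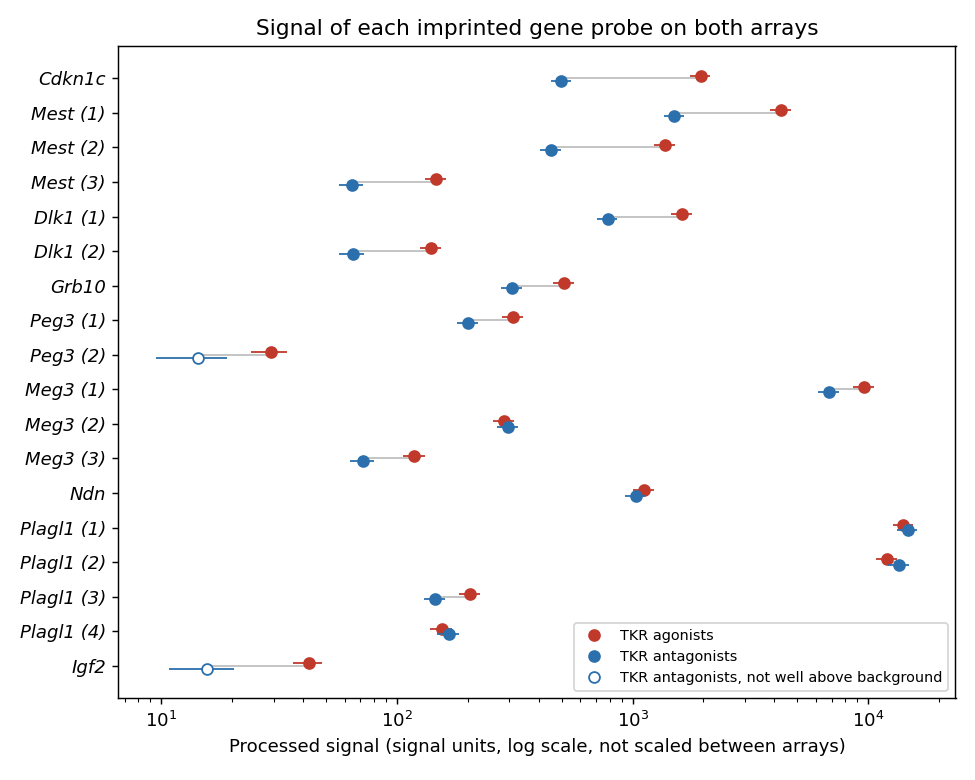
Processed signal of each of the 18 probes (signal units, log scale, before scaling between arrays) on the agonist and the antagonist array, with the software's spot error as bars. The bars of the arrays do not overlap for Cdkn1c, Mest, Dlk1, Grb10, Igf2 and Peg3. Those of Ndn overlap, and Meg3 and Plagl1 have probes of either kind. Open points are antagonist spots that failed the mark for signal well above background.

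The growth factors and membrane ligands of the list were Igf2 and Dlk1. Igf2 encodes insulin-like growth factor 2, a hormone that drives fetal growth through the IGF1 receptor. Its probe read 42.2 ± 6.07 signal units with agonists and 15.6 ± 4.80 with antagonists. The antagonist spot was not well above background, so the fold has only a lower bound of 1.79, from 1.73 to 2.17 over the scalings. After normexp correction, which models the background in another way, the log2 ratio was -0.034, so even the bound depends on how the background is taken. Dlk1 encodes a transmembrane protein of the Delta family that holds back the differentiation of fat and other cells and is shed into the blood. Its brighter probe read 1622 ± 162 signal units with agonists and 784 ± 78.5 with antagonists, a log2 ratio of 0.81 ± 0.20 or 1.75-fold. The dimmer Dlk1 probe, at 140 ± 14.7 and 64.9 ± 7.90, gave 0.86 ± 0.23. The ratios of these probes differ by less than their errors, and with normexp they were 0.57 and 0.35.

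Cdkn1c had the highest ratio of the list. It encodes p57 (Kip2), an inhibitor of cyclin-dependent kinases that stops the cell cycle in G1, and is expressed from the maternal allele. Its single probe read 1943.5 ± 194 signal units with agonists and 499 ± 50.1 with antagonists. The signals do not overlap within the spot errors, and the log2 ratio was 1.72 ± 0.20, or 3.29-fold. Of the 33073 probes, 222 (0.671%) had a ratio at least as high. Over the scalings it ran from 1.66 to 2.00 and with normexp it was 1.47. Grb10 encodes an adaptor that binds the insulin and IGF1 receptors and dampens their signal. Its probe read 512 ± 51.4 with agonists and 308 ± 31.1 with antagonists, a log2 ratio of 0.49 ± 0.21, and 8.77% of probes were at least as high.

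Mest (also called Peg1) encodes a protein of the alpha/beta hydrolase family of the endoplasmic reticulum, is expressed from the paternal allele and marks growing mesenchyme and fat. One of its probes was printed on 10 spots. These read from 3811 to 4490 signal units with agonists, with a median of 4318, and from 1360 to 1602 with antagonists, with a median of 1498. No spot with antagonists came near any spot with agonists, and the lowest spot with agonists stayed 1.01 log2 units above the highest with antagonists once the arrays were scaled. The log2 ratio of the 10 spots ran from 1.17 to 1.41, with a mean of 1.27 and an SD of 0.07, where the median SD of the 284 probes printed on several spots was also 0.07. The software marked 3 antagonist spots as outliers, and without them the ratio was 1.26 ± 0.20, or 2.40-fold. These spots repeat the hybridisation and not the ovaries.

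**Figure D2:**
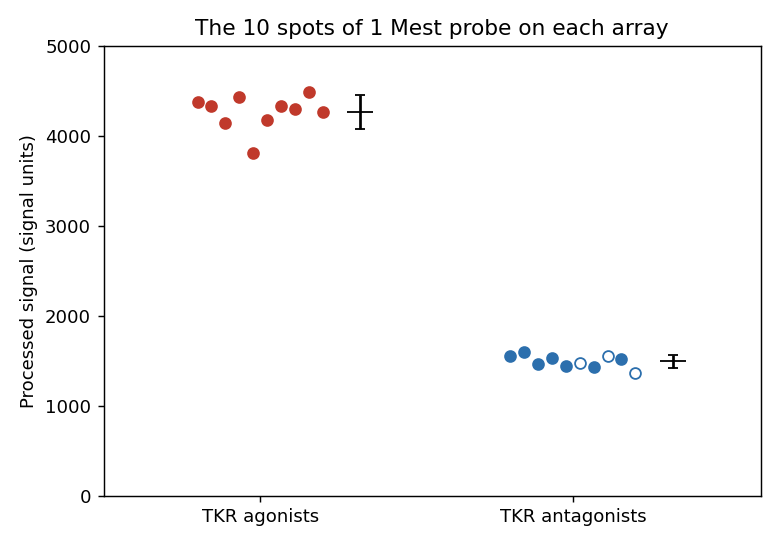
Signal of the 10 spots of a Mest probe (signal units, before scaling between arrays) on the agonist and the antagonist array, each point a spot, open where the software marked an outlier, with the mean and SD of the spots beside them. The agonist spots lie between 3811 and 4490 and the antagonist spots between 1360 and 1602.

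The other Mest probes are tied to a further RefSeq transcript of the gene. They read 1374 ± 137 and 147 ± 15.2 signal units with agonists against 451 ± 45.4 and 64.4 ± 7.61 with antagonists. Their log2 ratios were 1.36 ± 0.20 and 0.95 ± 0.23. The 3 Mest probes thus ran from 0.95 to 1.36, and 3.01% of all probes were at or above the lowest of them. With normexp the probe on 10 spots gave 1.27 and these probes 1.097 and 0.36, so the value of the dimmest Mest probe depends on how the background is taken.

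Peg3, Plagl1 and Ndn encode nuclear proteins. Peg3 is a zinc finger protein read from the paternal allele and known from maternal behaviour and growth. Its brighter probe read 312 ± 31.5 signal units with agonists and 199.785 ± 20.5 with antagonists, a log2 ratio of 0.40 ± 0.21. The dimmer one, at 29.1 ± 5.06 and 14.3 ± 4.71, was not well above background with antagonists and has a lower bound of 1.24-fold, from 1.19 to 1.497 over the scalings and 1.01 with normexp. Ndn encodes necdin, a MAGE family protein that holds back cell division in neurons. At 1116 ± 112 and 1031 ± 103 signal units it gave a log2 ratio of -0.13 ± 0.20, close to the median of all probes, and its sign turned to 0.11 with no scaling and to 0.15 with spike-in scaling.

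Plagl1 (also called Zac1) encodes a zinc finger factor that stops the cell cycle and is known to regulate other imprinted genes. Its brightest probe read 14090 ± 1409 signal units with agonists and 14709.5 ± 1471 with antagonists, a log2 ratio of -0.30 ± 0.20. A further probe, at 12048 and 13483 signal units, gave -0.40, and a dim probe, at 155 and 166 signal units, -0.34 ± 0.21. The last, at 205 and 145 signal units, gave 0.25 ± 0.21, the opposite sign. The probes of Plagl1 thus spread over 0.66 log2 units, and 3 of 4 lay below the median of all probes.

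Meg3 is a noncoding RNA of the same cluster as Dlk1, read from the maternal allele and known to slow cell growth. Its brightest probe read 9598.5 ± 960 signal units with agonists and 6834 ± 683 with antagonists, a log2 ratio of 0.25 ± 0.20. A dimmer probe of the same RefSeq accession, at 286 and 297 signal units, gave -0.30 ± 0.21, and a probe of a further accession, at 119 ± 12.5 and 71.5 ± 8.41, gave 0.49 ± 0.23, or 0.25 with normexp. The direction for Meg3 therefore depends on the probe, over a spread of 0.79.

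**Figure D3:**
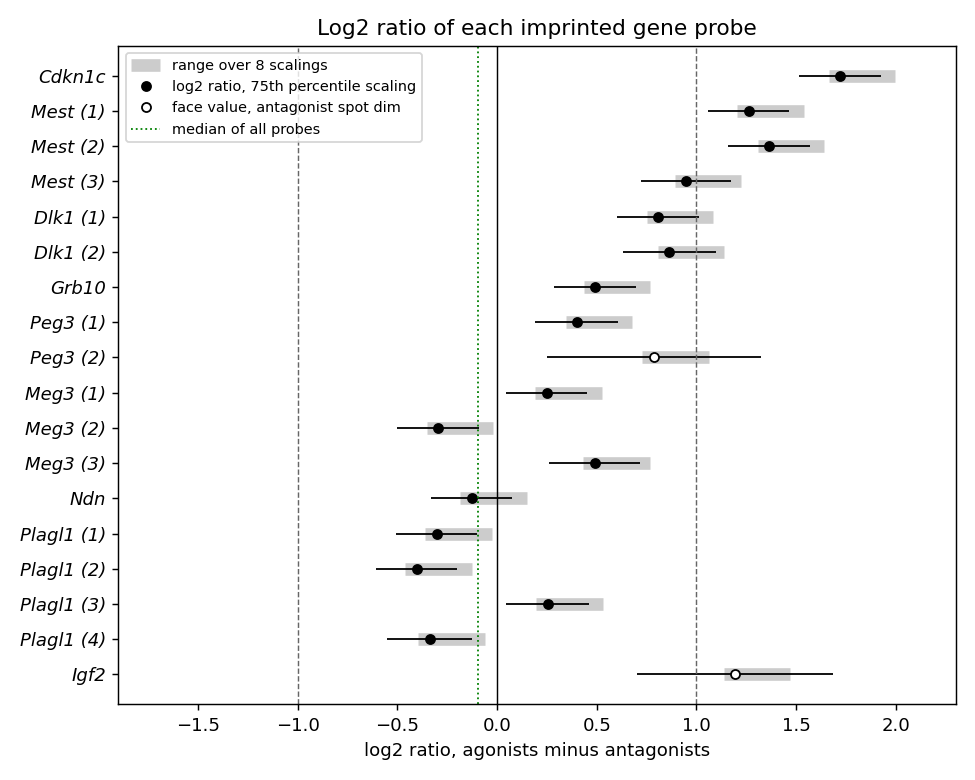
Log2 ratio, agonists minus antagonists, of each of the 18 probes, with the software's error as a line and a grey bar for the range over 8 scalings between arrays, which leaves out normexp background correction. Cdkn1c and 2 of the 3 Mest probes lie beyond 2-fold, open points are probes whose antagonist spot was not well above background, and the dotted line is the median of all probes.

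**Figure D4:**
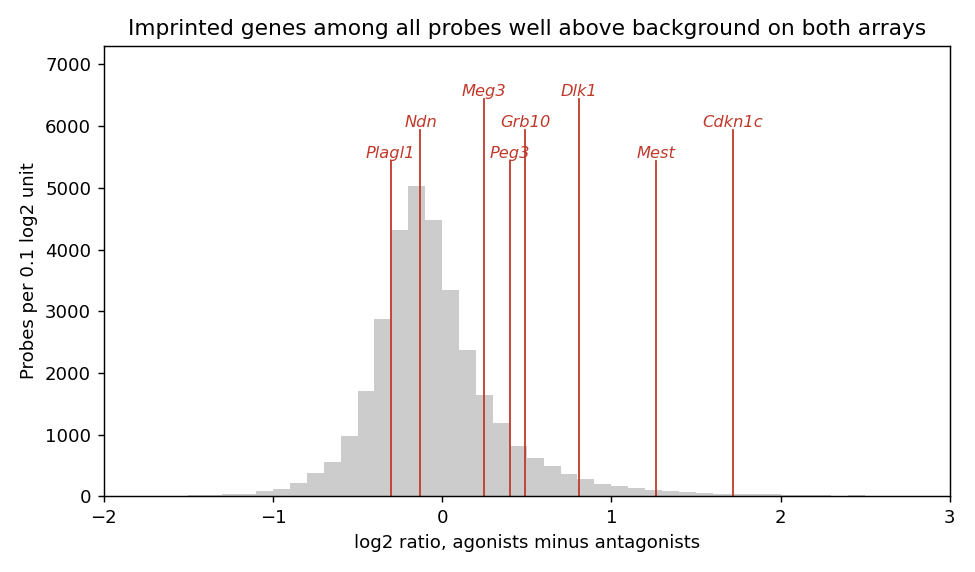
Histogram of the log2 ratio, agonists minus antagonists, in steps of 0.1 over the 33073 probes that passed the background mark on both arrays (vertical axis, number of probes), with a line at the brightest probe of each of 8 member genes. Cdkn1c lies at 1.72, Mest at 1.26 and Dlk1 at 0.81, beyond the 95th percentile of 0.72, while Ndn and Plagl1 lie to the left of 0.

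Imprinted genes lie in clusters, so the listed imprinted genes within 5 Mb of each member in RefSeq order were set beside it. These neighbours were chosen after values had been seen. Around Cdkn1c and Igf2 on chromosome 7, 11 genes passed the background mark on both arrays, and their median log2 ratio was 0.04. Cdkn1c and its neighbour Slc22a18, an organic cation transporter expressed from the maternal allele, were the 2 past 2-fold, Slc22a18 at 206 signal units with agonists and 51.0 with antagonists and a log2 ratio of 1.77. Kcnq1, a potassium channel gene of the cluster, read 1479 and 874, a log2 ratio of 0.52. Kcnq1ot1, the noncoding RNA that silences the cluster on the paternal allele, gave -0.14 on its brightest probe and 0.20 on a dimmer one, and the others ran, by their brightest probe, from -0.55 (Ascl2) to 0.15 (Tnfrsf23). In the cluster of Dlk1 and Meg3 on chromosome 12, the noncoding RNA Mirg gave 0.30 and Dio3, the deiodinase that inactivates thyroid hormone, read 559 with agonists and 189 with antagonists, a log2 ratio of 1.32. By the brightest probe of each gene, all 4 genes measured there had a ratio above 0, as 37.7% of all named genes did, and for Meg3 a dimmer probe gave the opposite sign. By their brightest probe, the 7 genes of the Ndn cluster, Ndn included, ran from -0.65 (Snrpn) to 0.01 (Magel2). A dimmer Peg12 probe, at 34.7 and 21.2 signal units, gave 0.47, where the brightest gave -0.16. Copg2, beside Mest, gave -0.11. Klf14, also near Mest, and Usp29, beside Peg3, were well above background with agonists only, with lower bounds of 1.05-fold and 1.31-fold. No listed neighbour lay near Plagl1 or Grb10.

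**Figure D5:**
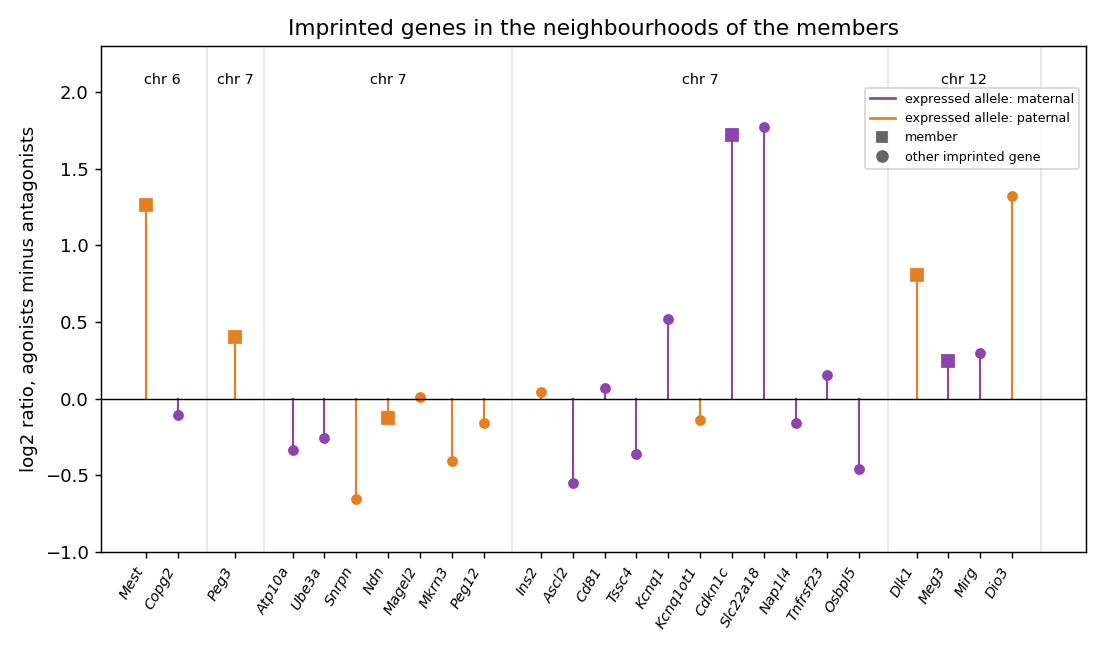
Log2 ratio, agonists minus antagonists, of members (squares) and of other listed imprinted genes near them (circles) that were well above background on both arrays. Genes are in genome order within each cluster and coloured by the allele listed as expressed. The allele was not measured in these ovaries. Each gene is shown by its brightest probe. Cdkn1c, Slc22a18, Dio3 and Mest stand above 1, and the genes around Ndn lie at or below 0.01.

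Among other imprinted genes the ratios lay on both sides of 0. Of 46 listed, 34 passed the background mark on both arrays, with a median log2 ratio of -0.09, where that of all named genes was -0.10. Higher were 15 (44.1%) and lower 19, where 37.7% of all named genes were higher. Over all named genes 4.01% were at least 2-fold higher, and of the 34 genes 3 (8.82%) were. These were Slc22a18, Dio3 and Asb4, an ankyrin repeat protein of the ubiquitin system that was outside the rule for named genes and read 2392 with agonists and 795 with antagonists, a log2 ratio of 1.35. A dimmer Asb4 probe, at 63.4 and 53.0 signal units, gave 0.02. Of those listed as maternally expressed, the brightest were Cd81 (0.07), Osbpl5 (-0.46) and Tssc4 (-0.36). Of those listed as paternally expressed, the brightest were Peg13 (-0.42), Impact (-0.06) and Sgce (0.18), with the lowest ratio at Nnat (-0.65). Which allele was read in these ovaries was not measured. A dimmer Impact probe, at 209 and 136 signal units, gave 0.38, the opposite sign.

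None of the genes that carry or bind the IGF2 signal was past 2-fold. Of 8 IGF2 receptors, adaptors and mRNA-binding proteins, 7 were well above background on both arrays, 5 of them higher, with a median log2 ratio of 0.16. Over all named genes 37.7% were higher. At least 2-fold higher were 4.01% of all named genes and lower 0.577%, so none past 2-fold among 7 is close to those shares. Igf1r, the receptor through which IGF2 acts, gave -0.32, Igf2r, an imprinted receptor that clears IGF2, -0.12, and Irs1, an adaptor of both receptors for insulin and IGF1, 0.16. Insr, the insulin receptor, gave the highest ratio, 0.45.

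Markers of several cell types were higher on the agonist array too. All 7 surface epithelium markers measured were higher (median log2 ratio 0.99, signal before scaling summed over the list 25895 with agonists against 10474 with antagonists), as were 6 of 6 for smooth muscle and pericytes (0.71, 28847 against 15259), 8 of 9 for endothelium (0.88, 52403 against 36089), 9 of 10 for macrophages (0.83, 24019 against 16184) and 8 of 9 for stroma (0.41, 280324 against 197773). Over all named genes 37.7% had a ratio above 0. After scaling, the summed signal gave log2 ratios of 1.06 for surface epithelium, 0.68 for smooth muscle and pericytes and 0.30 for endothelium. It gave 0.33 for macrophages and 0.26 for stroma. The sums also take in markers well above background on 1 array only. Each marker weighs in a sum by the brightness of its probe, so a few bright probes can carry it. With agonists, Dcn read 129811 of the 280324 for stroma, and Gdf9 95396 of the 181355 for oocytes. Granulosa cell markers were higher for 3 of 12 (-0.33, 117702 against 121259), and their summed signal after scaling gave a log2 ratio of -0.28. Theca cell markers were higher for 2 of 6 (-0.26, 62590 against 52818), a share near that of all genes, and their summed signal after scaling gave a log2 ratio of 0.0033. Of the oocyte markers 9 of 12 were higher (0.18, 181355 against 155204), with a log2 ratio of the summed scaled signal of -0.017, and both erythrocyte markers measured lay near the median of all (-0.10, 714 against 619). Of the adipocyte markers, Fabp4 (3.82) and Plin1 (0.59) were higher, the list summing to 832 against 97.4, and Adipoq and Lep, which define the cell type, were not well above background on either array. The part of these cell types in the ratios of Cdkn1c, Mest and Dlk1 was not tested.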

How the data were processed

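Ovaries cultured with TKR agonists or antagonists were profiled on 1 single-colour array each. Per the labels and the submitters' processing notes, slides were read with Agilent Feature Extraction (version not given in the sources used here), and the authors deposited the processed signal of every spot as an intensity on a linear scale, background-corrected and not scaled between arrays. Their summary values are this signal times a constant of 1.99 (agonists) and 2.19 (antagonists).

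From these files control spots and marked outliers were left out, each array was scaled to its 75th percentile, and spots of a probe were averaged on the log2 scale. RefSeq accessions named 27230 probes and left 28444 unnamed. A gene is given by its probe with the highest mean signal, a probe passes the background mark if more than 50% of its spots do, and a dim probe has a lower bound from the lowest signal well above background (18.1 and 19.9 signal units). Every probe of the members is named, and of each other list the 3 brightest genes with the highest and the lowest ratio were candidates for naming. Members and lists were chosen with earlier results of these data known.

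Of the spots that are not controls, 65.4% and 61.6% were well above background, and the number of arrays limits the precision. Alternatives were other scalings, the authors' summary values, normexp correction (offset 50, limma 3.58.1), other spot, probe and dim filters and thresholds of 1.5-fold and 4-fold. The step from spots to probe ratios was tested on simulated data. The outlier and background marks, the lower bounds and the choice of a gene's probe were not. Python 3.11.15, numpy 2.4.6, pandas 2.3.3 and R 4.3.3 were used.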

Additional observations from a re-analysis of the deposited data

How the results depend on the processing

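Of 180 values of the 18 probes under other settings, 140 moved by less than the spot error and the others by more. Of these, 3 also changed sign, the Igf2 probe with normexp correction (-0.034) and Ndn without scaling (0.11) and on spike-in controls (0.15). Most scalings shift all probes by the same amount, and the spot settings can change only the Mest probe on 10 spots. The count of 140 therefore reflects the settings chosen and does not measure how stable the probes are. The 2 genes at least 2-fold higher became 3 without scaling, on spike-in controls, with no filter on dim probes and at 1.5-fold, and 0 at 4-fold. The median over the 8 member genes, 0.45 on the log2 scale, became 0.69 without scaling and 0.72 on spike-in controls, where the median of all probes became 0.14 and 0.18. No gene was 2-fold lower under any setting. No paired analysis was possible because a group holds a single array here and nothing was tested. Signal over background limits Igf2 and the dimmer Peg3 probe, whose antagonist spots passed the software's mark for signal over background but failed its stricter mark.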

Other observations

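No relative of the listed genes was past 2-fold. Of 9 such genes, 8 were well above background on both arrays, 3 higher and 5 lower, with a median log2 ratio of -0.07. These values are close to those of all named genes, where 37.7% were higher and the median was -0.10. Of all named genes, 4.01% passed 2-fold upward and 0.577% downward, so none among 8 is close to those shares. Cdkn1b, which encodes p27 and belongs to the same family of cell-cycle inhibitors as Cdkn1c, read 4832 signal units with agonists and 4740 with antagonists, a log2 ratio of -0.21. Cdkn1a, which encodes p21, was looked up after its value had been seen and read 744 and 573, a log2 ratio of 0.13. Maged1, a MAGE family relative of Ndn, gave -0.09. Grb14, an adaptor related to Grb10, gave 0.33. Plag1, a growth-promoting relative of Plagl1, gave -0.47 at 32.2 and 37.7 signal units, close to background.

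The factors that keep imprints were all measured. Of 10 genes, 3 were higher and 7 lower, none past 2-fold, with a median log2 ratio of -0.11. The median of all named genes was -0.10, and 37.7% of them were higher. Only 4.01% of them passed 2-fold upward and 0.577% downward. The list as a whole thus lay close to all named genes. Dppa3, a maternal factor that protects methylation in the early embryo and is abundant in oocytes, gave 0.32. Uhrf1, which recruits the maintenance methyltransferase, gave -0.21, Trim28, the corepressor bound by zinc finger proteins at imprints, -0.22, and Zfp445, such a zinc finger protein, -0.33.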
